A study of Homo sapiens with 18 samples.

Results

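The genes described here were 9 neuroendocrine genes chosen by name: ENO2, SYP, CHGA, CHGB, NCAM1, SCG2, SCG3 and INSM1, which are used as markers of neuroendocrine differentiation, and REST, the gene of a repressor of many neuronal genes. They were looked up by gene name in tables of read counts and of FPKM, which scale the fragments of a gene by its length and by the library size. The count tables held 22136 genes at 2 days and 21276 genes at 7 days. C4-2B is an established human prostate cancer line, labelled WT for genotype, and a single line stands for 1 genetic background. Cells were given DMSO vehicle or 0.1 μM of VIC-1911, an inhibitor of the kinase AURKA, for 2 days. For 7 days they received vehicle, VIC-1911 at the same dose, the PARP inhibitor olaparib at 1 μM, or both drugs at these doses. Poly(A) RNA of 3 libraries was sequenced in each of the 6 groups. The labels do not say whether the 3 libraries of a group came from separate cultures, so the p-values measure the spread between these libraries, which may be technical.

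Neuroendocrine cells of the prostate store peptides in dense-core granules, which are packed with chromogranins and secretogranins. Prostate adenocarcinomas can take on this state under treatment, with loss of luminal genes and gain of transcription factors such as INSM1. REST binds a long DNA element, RE1, beside neuronal genes and recruits histone deacetylases and demethylases through the RCOR and SIN3 proteins. Cells outside the nervous system keep neuronal genes low while REST is present.

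The libraries held 3245273 to 7184420 counts at 2 days and 4967931 to 19684208 counts at 7 days, and the shallowest 7-day library was olaparib replicate 1. All 10 luminal prostate markers looked up, among them KLK3 and HOXB13, had a mean of at least 1 FPKM in all 6 groups. Of 4 basal markers, KRT5 was listed at 0 in every group, while KRT14 had 1.52 FPKM in vehicle at 7 days and 1.05, 2.20 and 2.61 FPKM with VIC-1911, olaparib and both. KRT14 was lower with VIC-1911 (log2 -0.58 ± 0.23) and higher with olaparib (log2 0.58 ± 0.20) and the combination (log2 0.80 ± 0.19) in the test described below. Of all genes, 25.7% were lower with VIC-1911, and 28.1% and 28.6% were higher with olaparib and the combination. Olaparib and the combination are compared with vehicle across the series of library numbers described below. At 2 days KRT14 was at 0.10 FPKM in vehicle and 0.40 FPKM with VIC-1911, from 3 and 15 summed counts, too few to test. Of 13 neuroendocrine markers, namely the 8 genes above without REST and 5 others that included NEUROD1, FOXA2, POU3F2 and DLL3, only 2 or 3 had a mean of at least 1 FPKM in a group, and NEUROD1 was listed at 0 in all groups. Those that reached 1 FPKM were DLL3 and ENO2 in all groups and SYP in vehicle at 7 days. DLL3 had the highest group means, 5.34 to 7.96 FPKM. The summed level of the 13 was between 7.89 and 13.6 FPKM in a library, against 2556 to 4644 FPKM for the 10 luminal markers. The labelled cell type, a prostate cancer cell, thus had its luminal markers, and most neuroendocrine markers were at or near 0.

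The upstream sequences are shown for 3 of the genes: ENO2 and SYP, the markers with enough reads to test, and CHGA, whose promoter holds a known control element. The RefSeq promoter table for GRCh38.p14 matched 5 of the 9 genes, with 6 start sites, since REST has a pair of them. Each entry of that table, the 250 bases before a start site and the 50 from it on, was searched on both strands for the left and the right part of RE1, CAGCACC and GGACAG, and for the cAMP response element TGACGTCA. No match of one motif overlapped a match of another. The capitals mark a match, and the part printed is the 250 bases before the start site in the 5′ to 3′ direction of the gene. ENO2 is at chr12:6914330-6914579 on the plus strand, SYP at chrX:49200194-49200443 on the minus strand and CHGA at chr14:92922900-92923149 on the plus strand.
ENO2: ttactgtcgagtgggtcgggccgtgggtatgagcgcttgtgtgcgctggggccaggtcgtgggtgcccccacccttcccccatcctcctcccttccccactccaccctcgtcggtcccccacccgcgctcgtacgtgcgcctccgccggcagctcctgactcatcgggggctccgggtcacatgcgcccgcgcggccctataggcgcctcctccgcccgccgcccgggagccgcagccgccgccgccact
SYP: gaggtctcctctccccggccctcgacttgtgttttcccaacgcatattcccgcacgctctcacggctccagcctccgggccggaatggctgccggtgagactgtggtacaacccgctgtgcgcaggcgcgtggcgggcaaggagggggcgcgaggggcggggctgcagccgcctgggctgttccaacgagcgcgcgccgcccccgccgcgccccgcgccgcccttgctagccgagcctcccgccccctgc
CHGA: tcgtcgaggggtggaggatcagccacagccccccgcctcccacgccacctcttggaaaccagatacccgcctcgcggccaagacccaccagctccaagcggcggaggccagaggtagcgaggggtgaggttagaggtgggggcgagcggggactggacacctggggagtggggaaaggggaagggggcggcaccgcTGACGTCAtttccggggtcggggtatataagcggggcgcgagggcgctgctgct
The cAMP response element of CHGA starts 54 bases before the start site, and 1.848% of the 35116 promoters in the table hold these letters. The ENO2 and SYP promoters held neither part of RE1, which says only that these letters are not in the stretch searched. The left part occurs in 7.751% and the right part in 20.549% of all promoters. Both parts 2 bases apart, the usual spacing, occur in 0.051% of promoters and in none of the 6 here.

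SCG3 was the only one of the 5 genes whose promoter entry held both parts of RE1. They lie after the start site, beginning at base 11 counted from it, and the 250 bases before it held neither part. The stretch is shown because of its wide spacing, with the parts in capitals (chr15:51681513-51681533, plus strand, GRCh38.p14).
SCG3: CAGCACCcacagggcGGACAG
The parts are 8 bases apart there, a spacing found in 5 of the 35116 promoters, or 0.014%. The second REST start site has a GGACAG 170 bases before it and no left part. The 250 bases before the start sites of ENO2, SYP and CHGA were 74.0%, 74.0% and 68.8% G or C, against a median of 58.0% over all promoters. None of these matches was tested for binding.

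Detection separated the 9 genes. A gene was called not detected at a time where no library had over 3 counts, below the limit of the test where fewer than 3 libraries had 10 counts, and tested otherwise. At 2 days, 3 genes (ENO2, SYP and REST) were tested, SCG2 was below the limit, and 5 (CHGA, CHGB, NCAM1, SCG3 and INSM1) were not detected. At 7 days the same 3 were tested, 5 (CHGA, CHGB, SCG2, SCG3 and INSM1) were below the limit, and NCAM1 was not detected. Per length, REST had the highest level, with group means between 5.87 and 7.26 FPKM. ENO2 followed with 2.01 to 3.76 FPKM, and SYP with 0.520 to 1.23 FPKM. These 3 ranges of group means did not overlap. The other 6 genes had group means of at most 0.104 FPKM, and their order among themselves could not be told at this depth.

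**Figure D1:**
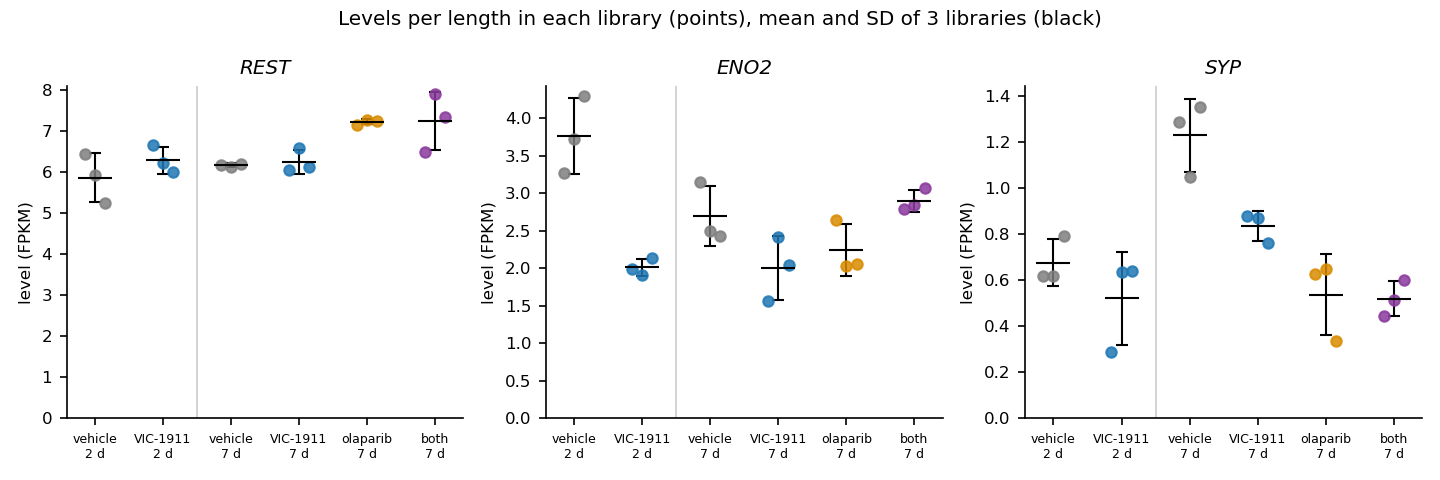
Level per length (FPKM, linear axes from 0) of REST, ENO2 and SYP in each of 18 libraries, in 6 groups; points are libraries, and the black marks are the mean and SD of 3 libraries. REST lies between 5.24 and 7.91 FPKM throughout, the mean of ENO2 is lowest in the VIC-1911 groups, and SYP at 7 days is highest in the vehicle libraries.

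Differences were tested on the counts with edgeR's quasi-likelihood test, adjusted by the Benjamini-Hochberg method over all tested genes, and adjusted p below is from this test. With VIC-1911 at 2 days, 1 of 3 was lower (ENO2), where 7.19% of 12241 genes were lower, and 0 were higher, where 7.5% of all genes were. ENO2 was also lower by at least 1.5 times, as 1.33% of all genes were. With VIC-1911 at 7 days, 2 of 3 were lower (ENO2 and SYP), where 25.7% of 14409 genes were, and 0 were higher, where 26.7% were. None of the 3 was lower by at least 2 times, where 3.43% of all genes were. With olaparib, 2 of 3 were lower (ENO2 and SYP; 25.9% of all genes) and 1 was higher (REST; 28.1%), and SYP alone was lower by at least 2 times (3.53%). With the combination, 1 of 3 was lower (SYP; 28%) and 1 was higher (REST; 28.6%), and SYP again passed the 2-fold limit (4%). With 25.7% to 28.6% of all genes called in each direction at 7 days, a call on 1 or 2 of 3 genes is no result about neuroendocrine genes as a group. All 3 comparisons with vehicle at 7 days share the same 3 vehicle libraries.

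REST changed little. At 2 days its level was 6.44, 5.93 and 5.24 FPKM in vehicle and 6.66, 6.23 and 6.0 FPKM with VIC-1911. These groups overlapped, and the log2 difference was 0.13 ± 0.09 (SE, n = 3 and 3; adjusted p = 0.335, 95% interval -0.04 to 0.31). At 7 days REST was at 6.19, 6.14 and 6.21 FPKM in vehicle and at 6.06, 6.59 and 6.12 FPKM with VIC-1911. Both groups held nearly the same level. The log2 difference was -0.03 ± 0.06 (adjusted p = 0.76), with a 95% interval of -0.16 to 0.11, and the FPKM values gave a difference of the opposite sign and under 0.02 in size. REST was higher in the groups that received olaparib, at 7.16, 7.28 and 7.25 FPKM with olaparib alone. It was at 6.5, 7.91 and 7.36 FPKM with the combination. The olaparib libraries all lay above the vehicle and the VIC-1911 libraries, while the lowest combination library lay below the highest VIC-1911 library. The fold over vehicle was 1.16 with olaparib (log2 0.21 ± 0.06, adjusted p = 0.00622) and 1.17 with the combination (log2 0.22 ± 0.06, adjusted p = 0.00324). In bulk RNA, a change in the number of cells of a kind and a change in RNA per cell cannot be told apart.

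The library numbers in the labels put vehicle and VIC-1911 of 7 days in one unbroken series and olaparib and the combination in another, so a difference between these series and an effect of olaparib cannot be told apart. The rise of REST in olaparib and in the combination follows that split. REST was also higher in the combination than with VIC-1911 (log2 0.25 ± 0.06, adjusted p = 0.00181), a comparison across the series in which 42.9% of all genes were called and all 3 tested genes passed. Within the second series the combination and olaparib differed by a log2 of 0.01 ± 0.06 (adjusted p = 0.938, 95% interval -0.11 to 0.14). REST lies at chr4:56907876-56966808 on the plus strand of GRCh38 (GENCODE v44), and 5.87% of it overlaps NOA1 on the minus strand, so its counts are uncertain if strand was not used. NOA1 had a log2 difference of -0.15 ± 0.05 with olaparib (adjusted p = 0.0162) and of -0.10 ± 0.05 with the combination (adjusted p = 0.0972), the opposite sign to REST. The part of NOA1 reads in the REST counts was not tested.

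ENO2, which encodes the neuronal form of the glycolytic enzyme enolase, was lower with VIC-1911 at both times. At 2 days it was at 3.27, 3.73 and 4.29 FPKM in vehicle and at 1.99, 1.91 and 2.13 FPKM with VIC-1911. The highest VIC-1911 library lay well below the lowest vehicle library. ENO2 was 1.96-fold lower (log2 -0.97 ± 0.18, n = 3 and 3, adjusted p = 0.000185), from 30 to 60 counts in a library. At 7 days ENO2 was at 3.15, 2.49 and 2.43 FPKM in vehicle and at 1.57, 2.41 and 2.05 FPKM with VIC-1911. The gap between the groups was now narrow, 2.41 against 2.43 FPKM. The log2 difference was -0.47 ± 0.15 (adjusted p = 0.0109), or 1.38-fold lower, and it no longer passed without vehicle replicate 1 (adjusted p = 0.0881) or without VIC-1911 replicate 1 (adjusted p = 0.0732). The change in the VIC-1911 effect from 2 to 7 days was a log2 of 0.49 ± 0.25 (adjusted p = 0.142), so the smaller effect at 7 days was not shown to differ from that at 2 days. It passed without vehicle replicate 1 of 7 days (log2 0.65, adjusted p = 0.044). None of the 3 tested genes passed this comparison of times, in which 28.7% of 13830 genes did.

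With olaparib ENO2 was at 2.65, 2.03 and 2.05 FPKM, and with the combination at 2.79, 2.84 and 3.07 FPKM. One olaparib library overlapped the vehicle range, and the combination libraries all lay above both single-drug groups. ENO2 was lower with olaparib than with vehicle, across the series of library numbers, by a log2 of -0.37 ± 0.15 (adjusted p = 0.0389). That call was lost under 7 of 15 alternatives. Among them were DESeq2 (adjusted p = 0.0868), limma on log2(FPKM + 0.1) (adjusted p = 0.191) and library size as the only scaling (adjusted p = 0.0693). It was also lost without vehicle replicate 1, olaparib replicate 2 or olaparib replicate 3 (adjusted p = 0.224, 0.148 and 0.143). The combination did not differ detectably from vehicle (log2 0.09 ± 0.14, adjusted p = 0.613, 95% interval -0.20 to 0.37). It was higher than VIC-1911 by a log2 of 0.55 ± 0.15 (adjusted p = 0.00293), a fold of 1.47. That comparison is across the series, and all 3 tested genes and 42.9% of all genes were called in it. The combination was higher than olaparib by a log2 of 0.45 ± 0.14 (adjusted p = 0.0375), a comparison within one series of library numbers in which 1 of 3 tested genes and 11.5% of all genes were called. The call against olaparib was lost under 7 of 15 alternatives. These were DESeq2 (adjusted p = 0.0854) and limma on log2(FPKM + 0.1) (adjusted p = 0.18) and on log2(FPKM + 1). The others were the fits without olaparib replicate 2 or 3 or combination replicate 1 or 3 (adjusted p of 0.168, 0.172, 0.0562 and 0.146).

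For ENO2 the log2 effects of the drugs did not add. The interaction, which is the effect of VIC-1911 in the presence of olaparib minus its effect alone, was a log2 of 0.92 ± 0.21 (adjusted p = 0.000654, 95% interval 0.49 to 1.35). Each of these effects was measured within its own series of library numbers. A VIC-1911 effect that differs between the series cannot be told apart from one that differs with olaparib. It passed under all 20 alternatives tried, with a log2 between 0.57 and 1.06. By the same test 44% of all genes had an interaction, and 1 of the 3 tested genes here. In the order of mean levels at 7 days ENO2 ran from the combination (2.90 FPKM) through vehicle (2.69 FPKM) and olaparib (2.24 FPKM) to VIC-1911 (2.01 FPKM). The libraries of each group overlapped those of the next one in this order. Olaparib passed the test against vehicle, the combination did not, and olaparib and VIC-1911 were not compared by a test.

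The gene lies at chr12:6913745-6923698 on the plus strand of GRCh38 (GENCODE v44), and its first 497 bases overlap LRRC23 on the same strand, so reads there cannot be assigned by strand. The RefSeq start site used above lies beyond the end of LRRC23, at base 6914241. LRRC23 had log2 differences from vehicle of -0.26 ± 0.21 with VIC-1911 at 2 days (adjusted p = 0.444) and -0.74 ± 0.14 at 7 days (adjusted p = 3.13e-05). It had -1.07 ± 0.14 with olaparib (adjusted p = 1.80e-07) and -0.94 ± 0.13 with the combination (adjusted p = 7.39e-07). So it was lower in all 3 drug groups at 7 days, the combination included, where ENO2 was not. Its interaction was a log2 of 0.87 ± 0.20 (adjusted p = 0.00082), near that of ENO2, and its part in the ENO2 result was not tested.

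SYP, which encodes the synaptic vesicle protein synaptophysin, had its lowest levels of 7 days in the groups that received olaparib. At 2 days it was at 0.617, 0.619 and 0.794 FPKM in vehicle and at 0.288, 0.635 and 0.641 FPKM with VIC-1911. The groups overlapped, and only 4 to 12 counts in a library stood behind them. The log2 difference was -0.52 ± 0.40 (adjusted p = 0.424), and its 95% interval from -1.32 to 0.28 does not exclude a change as large as that of ENO2. At 7 days SYP was at 1.29, 1.05 and 1.35 FPKM in vehicle and at 0.877, 0.870 and 0.762 FPKM with VIC-1911. It was at 0.627, 0.650 and 0.336 FPKM with olaparib and at 0.446, 0.516 and 0.599 FPKM with the combination. The vehicle libraries all lay above those of VIC-1911, and these above those of olaparib and the combination, which overlapped each other.

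The fall of SYP from vehicle was 2.41-fold with olaparib (log2 -1.27 ± 0.24, adjusted p = 6.20e-05) and 2.32-fold with the combination (log2 -1.22 ± 0.24, adjusted p = 6.61e-05). Both passed in all 15 alternatives, the FPKM values included, and both are comparisons across the series of library numbers. With VIC-1911 alone, within one series, SYP was lower by a log2 of -0.58 ± 0.22 (adjusted p = 0.0309). That call was lost with DESeq2 (adjusted p = 0.0763), on log2(FPKM + 0.1) with limma (adjusted p = 0.0504) and without vehicle replicate 1, vehicle replicate 3 or VIC-1911 replicate 3 (adjusted p of 0.0859, 0.0654 and 0.115). The combination was below VIC-1911 by a log2 of -0.64 ± 0.25 (adjusted p = 0.0433), a call lost under 8 of 15 alternatives, with adjusted p up to 0.163. Without one library the call failed for each of the 3 VIC-1911 libraries (adjusted p of 0.0938, 0.103 and 0.0553) and for combination replicates 1 and 2 (0.163 and 0.0716). The combination and olaparib differed by a log2 of 0.05 ± 0.28 (adjusted p = 0.932, 95% interval -0.51 to 0.62), and the interaction of 0.63 ± 0.36 did not pass (adjusted p = 0.153). SYP lies at chrX:49187815-49200218 on the minus strand of GRCh38, and 10.1% of it overlaps SYP-AS1 on the other strand, a gene listed at a mean of 0.107 FPKM at 2 days and at 0 at 7 days.

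**Figure D2:**
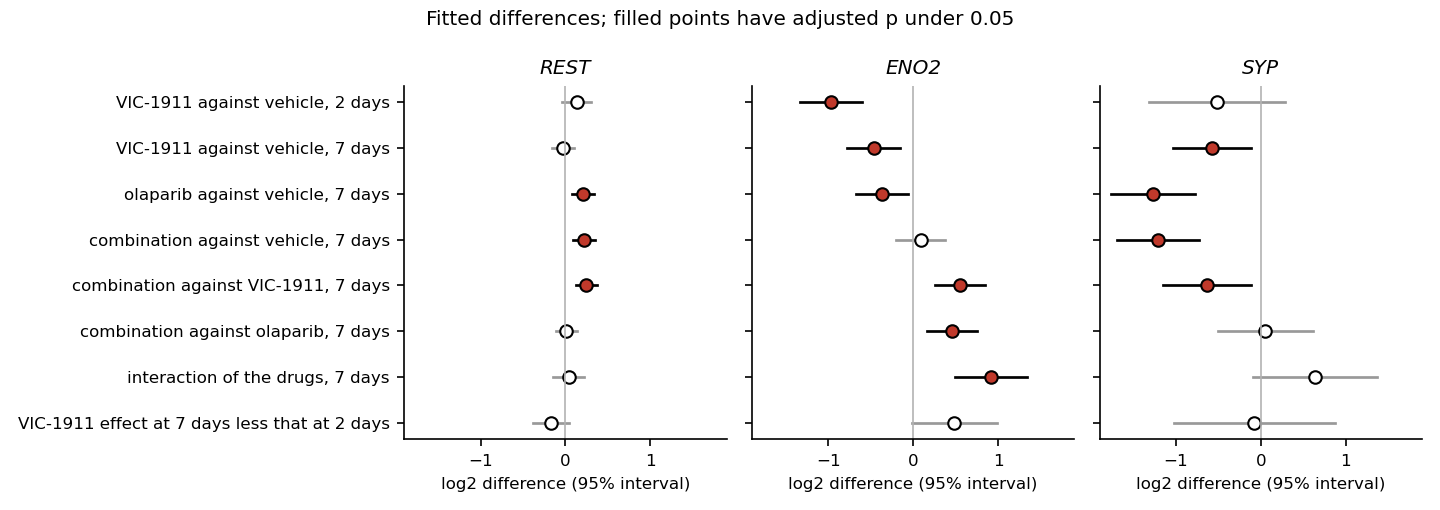
Fitted log2 differences (horizontal axis) of REST, ENO2 and SYP in 8 comparisons, with 95% intervals; filled points have an adjusted p under 0.05 in edgeR's quasi-likelihood test. ENO2 falls with VIC-1911 at 2 days by 0.97 and has an interaction of 0.92, SYP falls most with olaparib and the combination, and all REST differences are under 0.3 in size.

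Set side by side, with VIC-1911 ENO2 was lower at both times and SYP at 7 days, while the interval of REST held 0. The SYP call was lost under 5 of 15 alternatives. With olaparib, REST was higher while ENO2 and SYP were lower, and the ENO2 call was lost under 7 of 15 alternatives. With the combination, REST was higher and SYP lower while the interval of ENO2 held 0. Olaparib and the combination were compared with vehicle across the series of library numbers. The interaction of the drugs on REST was a log2 of 0.04 ± 0.09 (adjusted p = 0.772), and the change in its VIC-1911 effect from 2 to 7 days was -0.17 ± 0.11 (adjusted p = 0.235).

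The granins, which fill dense-core granules, were at the edge of detection. CHGA, the gene of chromogranin A, had 0, 0 and 0 counts in vehicle and 1, 2 and 2 with VIC-1911 at 2 days, all within the limit of 3 counts that a count of 0 allows. At 7 days it had 3, 2 and 1 counts in vehicle, 1, 1 and 7 with VIC-1911, 0, 4 and 0 with olaparib, and 3, 2 and 0 with the combination. These overlapped in every pair of groups, and VIC-1911 replicate 3 held 7 of the 9 counts of its group. A count of 0 allowed up to 0.924 CPM, the read count scaled to the library total, in the shallowest 2-day library and up to 0.604 in the shallowest 7-day library. These limits and the intervals below cover counting error only.

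CHGB, the gene of chromogranin B, was listed at 0 FPKM in 6 of 6 libraries at 2 days, where it had no counts to test. The 7-day libraries had 2, 6 and 1 counts in vehicle, 0, 1 and 1 with VIC-1911, 0, 2 and 0 with olaparib, and 0, 0 and 0 with the combination. Vehicle replicate 2 held most of the reads. From the summed counts, the combination was at least 3.33-fold lower than vehicle when the limit of 3 counts over the group is set against the 9 vehicle counts as they stand. With the counting error of both groups, the exact 95% interval of its ratio to vehicle reached up to 0.456. The ratio to vehicle was 0.227 with VIC-1911 (95% interval 0.0239 to 1.10) and 0.210 with olaparib (0.0221 to 1.02).

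SCG2, the gene of secretogranin II, had 0, 0 and 0 counts in vehicle and 0, 0 and 5 with VIC-1911 at 2 days, so 1 library held all of them. After 7 days there were 1, 1 and 0 counts in vehicle, 1, 3 and 2 with VIC-1911, 1, 4 and 1 with olaparib, and 7, 3 and 3 with the combination. The combination libraries all lay above the vehicle libraries. The summed counts were 13 against 2, a ratio of 5.85 with a 95% counting interval of 1.33 to 53.4. SCG3, the gene of secretogranin III, which sorts chromogranin A into granules, had at most 1 count in a library at 2 days. Counts at 7 days were 1, 3 and 1 in vehicle, 0, 1 and 3 with VIC-1911, 0, 4 and 3 with olaparib, and 6, 2 and 0 with the combination, which overlapped throughout. The ratio of the combination to vehicle was 1.44, with an interval of 0.416 to 5.60.

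INSM1, the gene of a zinc finger transcription factor of neuroendocrine cells, had 0 counts in all 6 libraries of 2 days. At 7 days it had 3, 6 and 1 counts in vehicle, 0, 1 and 0 with VIC-1911, 0, 1 and 1 with olaparib, and 0, 0 and 0 with the combination. The lowest vehicle library and 3 of the 9 drug-treated libraries had 1 count each, and the other drug-treated libraries had 0. The ratio to vehicle was 0.102 with VIC-1911 (95% interval 0.0024 to 0.719) and 0.189 with olaparib (0.0202 to 0.888). The combination was at least 3.70-fold lower by the limit of 3 counts over the group, with the 10 vehicle counts taken as they stand, and the exact 95% interval of its ratio reached up to 0.402. NCAM1, the gene of the adhesion molecule CD56, had at most 3 counts in a library at 2 days and at most 2 at 7 days. It was not detected at this depth in any group.

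When the count filter was dropped, edgeR's quasi-likelihood test called 3 of 9 genes lower with the combination: CHGB (adjusted p = 0.0101), INSM1 (adjusted p = 0.00653) and SYP, where 19.3% of 21276 genes were called lower. Without vehicle replicate 2, the library with 6 counts of each, CHGB had an adjusted p of 0.107 and INSM1 of 0.0566. SCG2 did not pass (adjusted p = 0.0721), and INSM1 did not pass with VIC-1911 (0.0665) or olaparib (0.122). The filter kept these genes out of the tests above, so these values rest on 9 and 10 vehicle counts.

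**Figure D3:**
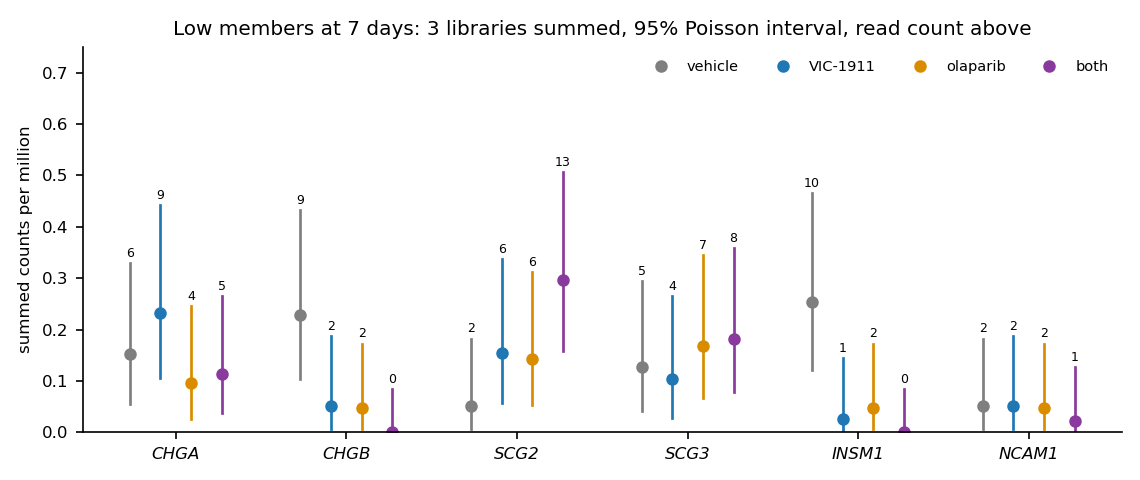
Summed read counts scaled to library totals (CPM, linear axis from 0) of the 6 low genes in the 4 groups of 7 days, each the sum of 3 libraries with a 95% Poisson interval, and the summed read count above it. CHGB and INSM1 have 9 and 10 counts in vehicle and 0 with the combination, SCG2 has 2 and 13, and the intervals of CHGA, SCG3 and NCAM1 overlap in all groups.

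Of 20 neuroendocrine transcription factors and lineage regulators, 7 could be tested at 2 days and 9 at 7 days. With VIC-1911 at 2 days 0 were higher and 1 lower, EZH2, the catalytic subunit of the Polycomb complex (log2 -0.32 ± 0.07, adjusted p = 0.00245). Of all genes, 7.5% were higher and 7.19% lower in that comparison. At 7 days, 2 were higher and 1 lower with VIC-1911, where 26.7% and 25.7% of all genes were. With olaparib and with the combination, 3 were higher and 2 lower, where 28.1% and 25.9%, and 28.6% and 28%, of all genes were. Of the 7 that had 10 counts in every vehicle library, 2, 3 and 2 were higher and 1, 2 and 2 lower in these comparisons. The median log2 difference of the 9 tested genes was 0.16, 0.26 and 0.16, against -0.01, 0.01 and 0.00 over all tested genes. For the 7 with 10 counts in every vehicle library the middle log2 differences were 0.16, 0.07 and 0.16, so the median with olaparib rests in part on the filter.

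HES6, a helper of proneural factors, was the one that was lower in all 3 comparisons of 7 days, from a mean of 140 FPKM in vehicle to 104 with VIC-1911, 69.7 with olaparib and 58.1 with the combination. Its log2 differences were -0.48 ± 0.06, -1.01 ± 0.07 and -1.27 ± 0.07 (adjusted p at most 2.53e-07). EZH2 was lower with olaparib (log2 -0.32 ± 0.07, adjusted p = 0.000119) and the combination (log2 -0.75 ± 0.07, adjusted p = 5.59e-11). PEG10, a retrotransposon-derived gene seen in neuroendocrine prostate cancer, rose from 0.543 FPKM in vehicle to 0.939, 1.75 and 1.06 FPKM. ONECUT2, a homeobox factor, rose from 0.852 FPKM to 1.35, 1.51 and 1.44 FPKM, with log2 differences of 0.62 ± 0.10, 0.80 ± 0.10 and 0.75 ± 0.10.

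Of 23 granule, vesicle and peptide-processing genes, 8 were tested at 2 days and 10 at 7 days. At 2 days 1 was higher and 1 lower with VIC-1911, where 7.5% and 7.19% of all genes were. At 7 days 4 were higher and 4 lower with VIC-1911, and 6 were higher and 4 lower with olaparib and with the combination, so that all 10 passed in 1 direction or the other under these last. Of all genes, 26.7% were higher and 25.7% lower with VIC-1911, 28.1% and 25.9% with olaparib, and 28.6% and 28% with the combination. The median log2 difference of the 10 was 0.39 with olaparib and 0.57 with the combination, against 0.01 and 0.00 over all tested genes. Of the 9 that had 10 counts in every vehicle library, 3, 5 and 5 were higher and 4, 4 and 4 lower in these comparisons. The middle log2 differences of these 9 were 0.33 with olaparib and 0.45 with the combination. SYT4, a vesicle synaptotagmin, had 23.8 FPKM in vehicle and 43.6 FPKM with VIC-1911 at 2 days (log2 0.90 ± 0.06, adjusted p = 3.82e-15). At 7 days it was at 30.8 FPKM in vehicle and 50.4, 80.7 and 107 FPKM with VIC-1911, olaparib and both. VGF, a secreted neuropeptide precursor, rose at 7 days with VIC-1911 (log2 0.35 ± 0.11), olaparib (log2 0.96 ± 0.10) and the combination (log2 1.11 ± 0.10). RAB3A, a GTPase of vesicle release, rose in the same 3 groups (log2 0.62 ± 0.08, 0.71 ± 0.08 and 0.70 ± 0.08).

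Other genes of the same list fell. DDC, the decarboxylase that makes dopamine and serotonin, went from 37.0 FPKM in vehicle to 25.8, 13.7 and 11.8 FPKM with VIC-1911, olaparib and both (adjusted p at most 4.69e-10). CPE, which trims peptide hormones in granules, fell at 2 days with VIC-1911 (log2 -0.26 ± 0.08, adjusted p = 0.0219). It also fell at 7 days with VIC-1911 (log2 -0.48 ± 0.07), olaparib (log2 -0.69 ± 0.07) and the combination (log2 -0.73 ± 0.07). CALCA, the calcitonin gene, had 48, 55 and 35 counts in vehicle at 7 days and 1, 1 and 4 with VIC-1911 (log2 -4.47 ± 0.42, adjusted p = 3.39e-10). Only the 3 vehicle libraries had 10 counts of CALCA, so it passed the filter through the group where it was high, and it is one of the 4 lower genes in each count above for 7 days. UCHL1, a ubiquitin hydrolase used as a neuroendocrine marker, was named after its values were seen, and it passed the filter through the drug groups. It had 1, 2 and 0 counts in vehicle and 13, 12 and 14 with the combination, a ratio of 11.7 with a 95% counting interval of 3.72 to 59.2.

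The partners of REST were tested almost completely, 14 of 15 at 2 days and 15 at 7 days, and genes of the list moved in both directions. At 2 days 1 was higher, HDAC2, a histone deacetylase (log2 0.21 ± 0.05, adjusted p = 0.00829), and 1 lower, CTDSP1, a phosphatase that stabilises REST (log2 -0.20 ± 0.06, adjusted p = 0.0342). Of all genes, 7.5% were higher and 7.19% lower at that time. At 7 days 5 were higher and 4 lower with VIC-1911 (26.7% and 25.7% of all genes), 5 and 3 with olaparib (28.1% and 25.9%), and 4 and 3 with the combination (28.6% and 28%). The median log2 differences of 0.02, 0.02 and -0.01 were near those of all tested genes. KDM1A, the histone demethylase of the complex, was at 20.9 FPKM in vehicle and at 32.3, 30.6 and 28.8 FPKM with VIC-1911, olaparib and both. HDAC2 had log2 differences of 0.50 ± 0.05, 0.47 ± 0.05 and 0.44 ± 0.05. RCOR3, a corepressor, was lower with VIC-1911 (log2 -0.32 ± 0.06) and olaparib (log2 -0.19 ± 0.06). RCOR2, another corepressor, had the largest fall of the list with VIC-1911 at 7 days (log2 -1.07 ± 0.39, adjusted p = 0.0216), without 10 counts in every vehicle library, and CSNK1E, a casein kinase, the largest rise with olaparib (log2 0.78 ± 0.28, adjusted p = 0.019). SRRM3, a splicing factor that acts on REST, was lower with the combination (log2 -0.71 ± 0.17, adjusted p = 0.000816).

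Of 24 neuronal genes known as targets of REST, 10 were tested at 2 days and 13 at 7 days. At 2 days 1 was higher and 0 were lower with VIC-1911, where 7.5% and 7.19% of all genes were. At 7 days 4 were higher and 2 lower with VIC-1911, 6 and 2 with olaparib, and 8 and 3 with the combination. The shares of all genes higher and lower were 26.7% and 25.7%, 28.1% and 25.9%, and 28.6% and 28%. The median log2 differences of all 13 were 0.15, 0.42 and 0.45, against -0.01, 0.01 and 0.00 over all tested genes. Of the 13, 4 (CHRM4, L1CAM, NEFL and UNC13A) did not have 10 counts in every vehicle library and needed libraries of the drug groups to pass the filter. UNC13A fell short least, with 10 counts in 11 of the 12 libraries of 7 days. Of the other 9, 3, 4 and 4 were higher and 2, 2 and 3 lower in these comparisons. The middle log2 differences of these 9 were -0.01, 0.20 and 0.14, so the medians of the 13 rest in part on the filter. TUBB3, the neuronal tubulin, went from 5.53 FPKM to 8.80 FPKM with VIC-1911 at 2 days (log2 0.51 ± 0.13, adjusted p = 0.00436). At 7 days it was at 7.20 FPKM in vehicle and 12.6, 18.2 and 26.7 FPKM with VIC-1911, olaparib and both. NEFL, the light neurofilament, had 6, 8 and 5 counts in vehicle and 115, 66 and 115 with the combination, a log2 difference of 3.73 ± 0.26 (adjusted p = 3.60e-13). CPLX1, a regulator of synaptic release, was lower with VIC-1911 (log2 -0.69 ± 0.08), olaparib (log2 -0.47 ± 0.08) and the combination (log2 -0.41 ± 0.08). MAPT, the microtubule protein tau, was lower in the same 3 groups by 0.21 to 0.35 on the log2 scale.

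**Figure D4:**
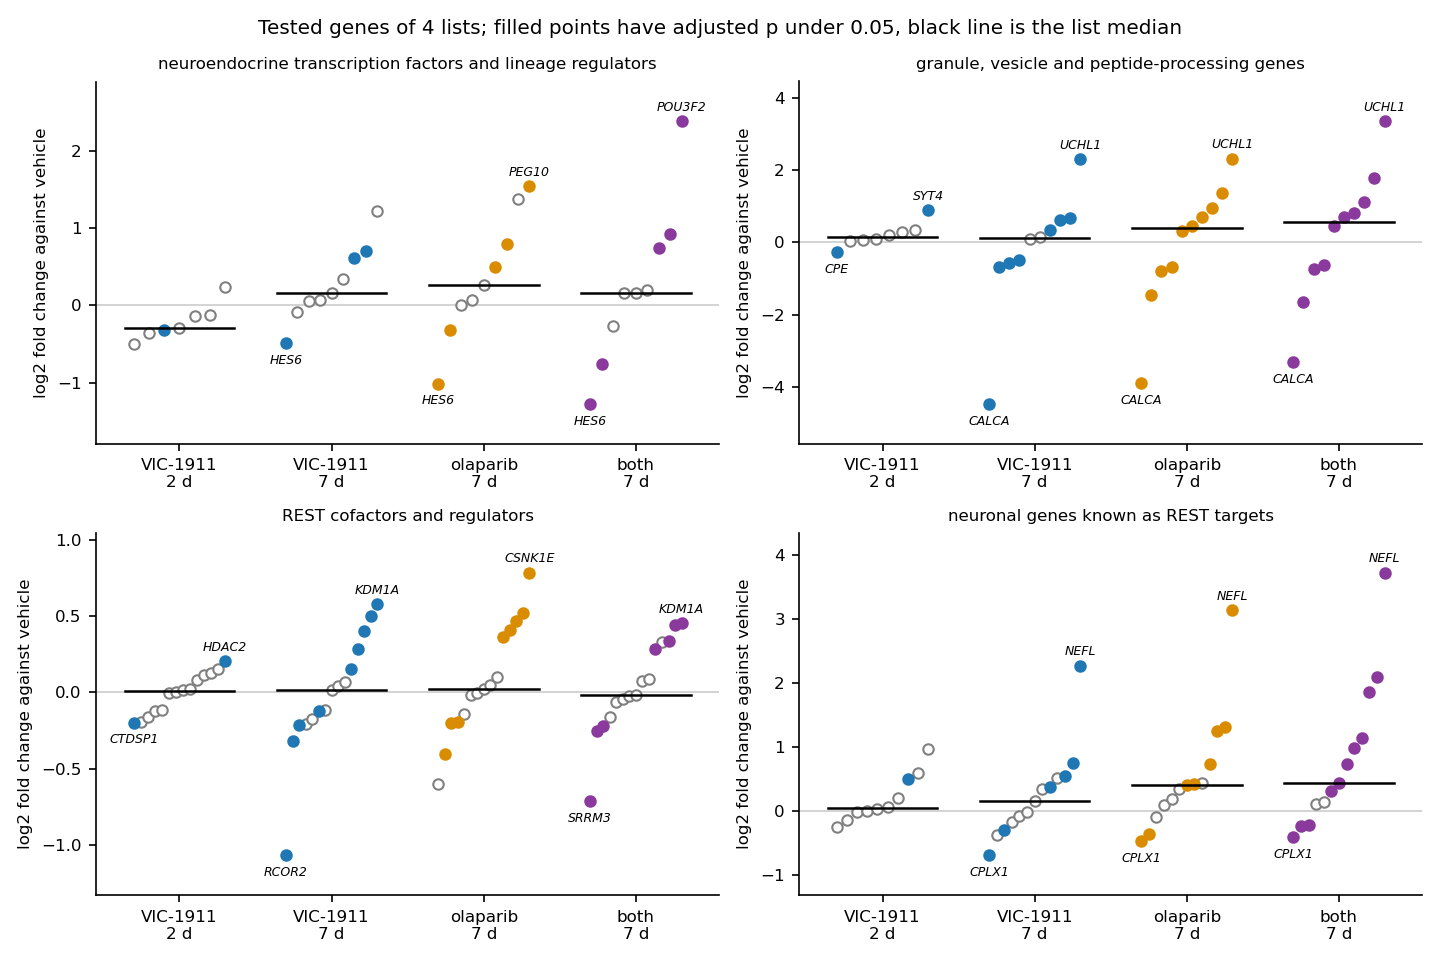
Log2 fold change against vehicle (vertical axis) of the tested genes of 4 lists, with VIC-1911 at 2 and 7 days, olaparib at 7 days and both drugs at 7 days; filled points have an adjusted p under 0.05 in edgeR's quasi-likelihood test, and the black line is the median of the list. Genes on both sides of 0 pass in each list at 7 days, with DDC, CPE and CALCA below and SYT4, VGF and UCHL1 above 0 in the granule list.

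Luminal markers moved in the same libraries. The summed level of the 10 luminal markers was 4575 to 4644 FPKM in the vehicle libraries of 7 days, 3224 to 3404 FPKM with VIC-1911, 3035 to 3146 FPKM with olaparib and 2999 to 3139 FPKM with the combination. KLK3 was the largest part of these sums, with means of 2681, 1808, 1657 and 1670 FPKM. Of the 10, 6 were lower and 1 higher with VIC-1911, and 7 were lower and 2 higher with olaparib and with the combination. Of all genes, 25.7% to 28% were lower and 26.7% to 28.6% higher in these comparisons. STEAP2, a metalloreductase of prostate cells, was lower by a log2 of -1.16 ± 0.05 with VIC-1911, and FOLH1, the gene of PSMA, by -1.0 ± 0.05 with olaparib and -1.19 ± 0.05 with the combination. At 2 days 4 were higher and 1 was lower with VIC-1911, where 7.5% and 7.19% of all genes were. The summed level at 2 days was 2663 to 2850 FPKM in vehicle and 2556 to 2682 FPKM with VIC-1911. The 1 lower marker at 2 days was KLK3, with means of 1523 FPKM in vehicle and 1313 FPKM with VIC-1911. The part of these changes in the levels of ENO2 and SYP was not tested.

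The genes whose 3 log2 differences from vehicle at 7 days were nearest to those of REST, among the 11678 tested genes whose mean level reached 1 FPKM, were PHF11, TMEM263 and UBP1, at root mean square differences of 0.015, 0.0165 and 0.0191. PHF11 had log2 differences of 0.00, 0.21 and 0.23 with VIC-1911, olaparib and both. Those nearest to ENO2 were LOC101928837, LOC101927365 and SCARNA9, at 0.0341, 0.0365 and 0.0444. SCARNA9, a small RNA of Cajal bodies, had log2 differences of -0.50, -0.31 and 0.12. Both measures rest on 3 values from 4 groups that share the vehicle libraries.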

How the data were processed

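Poly(A) RNA-seq of C4-2B cells was taken from tables of the whole series, one of raw read counts and one of FPKM for each time. After trimming (Trimmomatic) and alignment to GRCh38 (STAR, version 2.6.0 in the submitters' processing notes and another in the methods), the authors deposited raw read counts per gene. The authors also deposited FPKM values, scaled by gene length and library size. SCG2 had 0 counts but 0.0585 FPKM in vehicle replicate 2 of 2 days, so the 2-day FPKM do not all come from the deposited counts. All 36 columns were used. Labels and methods name different kits for RNA and libraries.

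Groups came from the sample labels. The counts went into edgeR 4.0.16 under R 4.3.3 (TMM scaling, two-sided quasi-likelihood test), keeping genes that reached 10 counts in 3 or more of the libraries fitted, with 6 libraries and 12241 genes at 2 days, 12 libraries and 14409 genes at 7 days, and 12 libraries and 13830 genes for the VIC-1911 effect across times. Benjamini-Hochberg adjustment was over all genes of a comparison, and calls were made under 0.05. The biological coefficient of variation was 3.44%, 4.43% and 3.99%. Errors of log2 differences are standard errors. Intervals of summed counts are exact at 95%, and 3 counts is the limit that a count of 0 allows. The code was tested on simulated data.

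The 9 genes and the gene lists were chosen with earlier results of these data known, so no list is independent evidence. Named list genes are up to 2 higher and 2 lower per list and comparison with vehicle, by smallest adjusted p; KRT14, RCOR2, CSNK1E, UCHL1 and the genes in the closing observations were named after their values were seen, and CHRM4, L1CAM and UNC13A only to say how they passed the filter. Alternatives were upper-quartile, DESeq2 and no scaling factors, no filter, the replicate block, the compared groups alone, DESeq2 1.42.0, limma 3.58.1 on log2(FPKM + 0.1) and log2(FPKM + 1), and each library left out. The unfiltered fit without each vehicle or combination library was added after seeing the data. Sequences are from RefSeq, positions from GENCODE v44. Some genes counted within the marker lists are not reported here by name.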

Additional observations from a re-analysis of the deposited data

Results flagged for a closer look

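The effect of VIC-1911 on ENO2 at 7 days differed with olaparib. VIC-1911 lowered ENO2 by a log2 of -0.47 without olaparib, and the combination was above olaparib by 0.45. The difference between these effects was 0.92 on the log2 scale (edgeR's quasi-likelihood test, adjusted p = 0.000654), and it was between 0.57 and 1.06 with an adjusted p of at most 0.0119 under the 20 alternatives. An interaction was called for 44% of all genes. The effects compared come from different series of library numbers, so olaparib and series cannot be told apart here.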

How the results depend on the processing

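Over the alternatives, 345 of the values of single genes kept their direction and their side of the threshold, 31 lost their call, 1 gained one and 16 changed sign. All 16 sign changes were of differences that did not pass. Calls that held under every alternative were ENO2 with VIC-1911 at 2 days, ENO2 in the combination against VIC-1911, the ENO2 interaction, and SYP and REST with olaparib and with the combination against vehicle. REST in the combination against VIC-1911 also held. The number of the 9 genes called was 4 in place of 2 for the combination against vehicle without a filter, since CHGB and INSM1 then entered the test. It was 1 in place of 2 for VIC-1911 at 7 days with DESeq2 and with limma on log2(FPKM + 0.1). It was 0 in place of 1 for the combination against olaparib with DESeq2 and with limma at both pseudocounts. With each library left out in turn it was 0 to 2 for VIC-1911 at 7 days, 0 to 1 for the combination against olaparib, and 0 to 1 for the VIC-1911 effect across times. On FPKM with limma, REST with VIC-1911 at 7 days had 0.01684 and 0.01484, SYP in the combination against olaparib -0.005122 and -0.01096, and the REST interaction -0.01657 and -0.01415, each with pseudocounts 0.1 and 1. Without a filter REST in the combination against olaparib had -0.001662. With a library left out, the log2 difference ranged from -0.008441 to 0.2098 for ENO2 in the combination against vehicle, from -0.29 to 0.37 for SYP and from -0.05057 to 0.09193 for REST in the combination against olaparib. It ranged from -0.02532 to 0.1331 for the REST interaction and from -0.33 to 0.13 for SYP in the VIC-1911 effect across times. For these sign changes and lost calls the cause was not tested. Libraries with the same replicate number did not deviate together (correlations from -0.003 to 0.044 in 3 pairs at 2 days and from -0.035 to 0.111 in 18 pairs at 7 days, 1 of them over 0.1), so the numbers were not used as pairs. With the replicate number as a block, the number of genes called stayed at 1 with VIC-1911 at 2 days and at 2, 3 and 2 with VIC-1911, olaparib and both at 7 days, and no call on a gene changed. Depth limits the granins, INSM1 and NCAM1 at both times and SYP at 2 days.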

Other observations

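POU3F2 and DLL3 were tested among the 9 transcription factors and lineage regulators of 7 days. Their comparisons with vehicle are given here because these genes were named after their values were seen. POU3F2, a neural POU factor, had 0, 3 and 2 counts in vehicle and 15, 4 and 13 with the combination, a ratio of summed counts of 5.76 with a 95% counting interval of 2.23 to 18.9, and it passed the filter through the drug groups. DLL3, a Notch ligand of neuroendocrine tumours, had a mean of 5.34 FPKM in vehicle at 7 days and 6.21, 5.58 and 6.0 FPKM with VIC-1911, olaparib and both, and no difference from vehicle passed edgeR's quasi-likelihood test (adjusted p between 0.127 and 0.587).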
